A study of Rattus norvegicus with 65 samples.

Results

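Transcript levels of 9 genes that shape and clear mitochondria were followed in primary neonatal rat cardiomyocytes exposed to 5-fluorouracil (5FU), acetaminophen (Ace) or doxorubicin (Dox). The genes were taken by name, 3 for each role: the fusion genes Mfn1, Mfn2 and Opa1, the fission genes Dnm1l, Fis1 and Mff, and the mitophagy genes Pink1, Bnip3 and Bnip3l. All 9 had a row among the 14554 genes of the count table, under the Entrez Gene identifiers 192647 (Mfn1), 64476 (Mfn2), 171116 (Opa1), 114114 (Dnm1l), 288584 (Fis1), 301563 (Mff), 298575 (Pink1), 84480 (Bnip3) and 140923 (Bnip3l), and none was lost to a filter. The 65 polyA-selected RNA-seq libraries formed 10 groups. Cells received 10 mM 5FU in 1% DMSO or the same DMSO share alone (DMSO1), or 2.5 mM Ace, 1.25 µM Dox or vehicle alone in 0.25% DMSO (DMSO2), each for 6 or 24 h. At 6 h there were 6 libraries each of 5FU, Ace and DMSO1 and 7 each of Dox and DMSO2, and at 24 h there were 6 each of 5FU and DMSO1 and 7 each of Ace, Dox and DMSO2. All cells had been starved of serum overnight, and the cultures were split from a common pool of hearts, so p-values measure the spread between parallel cultures and not between animals.

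Mitochondria of a heart muscle cell continually join and divide. Mitofusins tether and fuse outer membranes, Opa1 fuses inner membranes and holds cristae together, and the dynamin-related GTPase encoded by Dnm1l cuts the organelle after adaptors such as Mff and Fis1 bring it to the surface. Damaged mitochondria are removed by mitophagy, either through the kinase Pink1, which accumulates on depolarised mitochondria and activates the ubiquitin ligase parkin, or through membrane receptors such as Bnip3 and Bnip3l that bind the autophagosome directly and are known targets of the hypoxia-inducible factor.

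Library totals ran from 14332827 to 25738297 estimated counts. Levels are given as counts scaled to library size and TMM factor (CPM), and a change was called at a Benjamini-Hochberg adjusted p (FDR) below 0.01 from edgeR's quasi-likelihood test fitted on all genes and all 10 groups. Counts of a member in a library ranged from 953 for Mfn1 and 943 for Fis1 upwards, apart from Mff, which had only 51 to 238 counts, so its group SDs were a median of 19.7% of the mean against 4.42% for Mfn2. Summed CPM of 10 cardiomyocyte markers lay between 41025 and 71279 in the 4 control groups, and none of these markers was at 0 in any library. In the Dox libraries at 24 h the same sum lay between 16163 and 22553, and in the 5FU libraries at 24 h between 29487 and 31675. Summed CPM of 10 fibroblast markers fell alongside, from 15124 to 18916 in DMSO2 at 24 h to 1923 to 4075 under Dox, and that of 9 endothelial markers from 291 to 387 to between 27.4 and 60.1, where Cldn5 was at 0 in at least 1 library. In such bulk samples fewer cells of a type and less RNA per cell cannot be told apart, and the part of cell composition in the members' changes was not tested.

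Libraries are numbered in column order, as names only. At 6 h, 3 libraries stood apart through Bnip3: library 1 of 5FU (668 CPM against 83.4 to 121 in the other 5), library 4 of DMSO1 (342 against 71.3 to 103 in the other 5) and library 4 of Dox (759.8 against 136 to 168 in the other 6). Library 1 of DMSO1 and library 7 of Dox at 24 h were also set apart, with 28% and 26.3% of all genes above every other library of the group. In groups of 6 and 7 libraries, any given library would on average be highest for 1 gene in 6 and 1 in 7. This share was taken only for the libraries set apart, so it was not compared with that of the others. Values of the 5FU and Dox comparisons without the 3 or all 5 libraries set apart are given with each gene or after Bnip3l. These libraries were picked after the values were seen. For every gene, an FDR or call without them is therefore a description of how the fit depends on them, and carries no test.

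**Figure D1:**
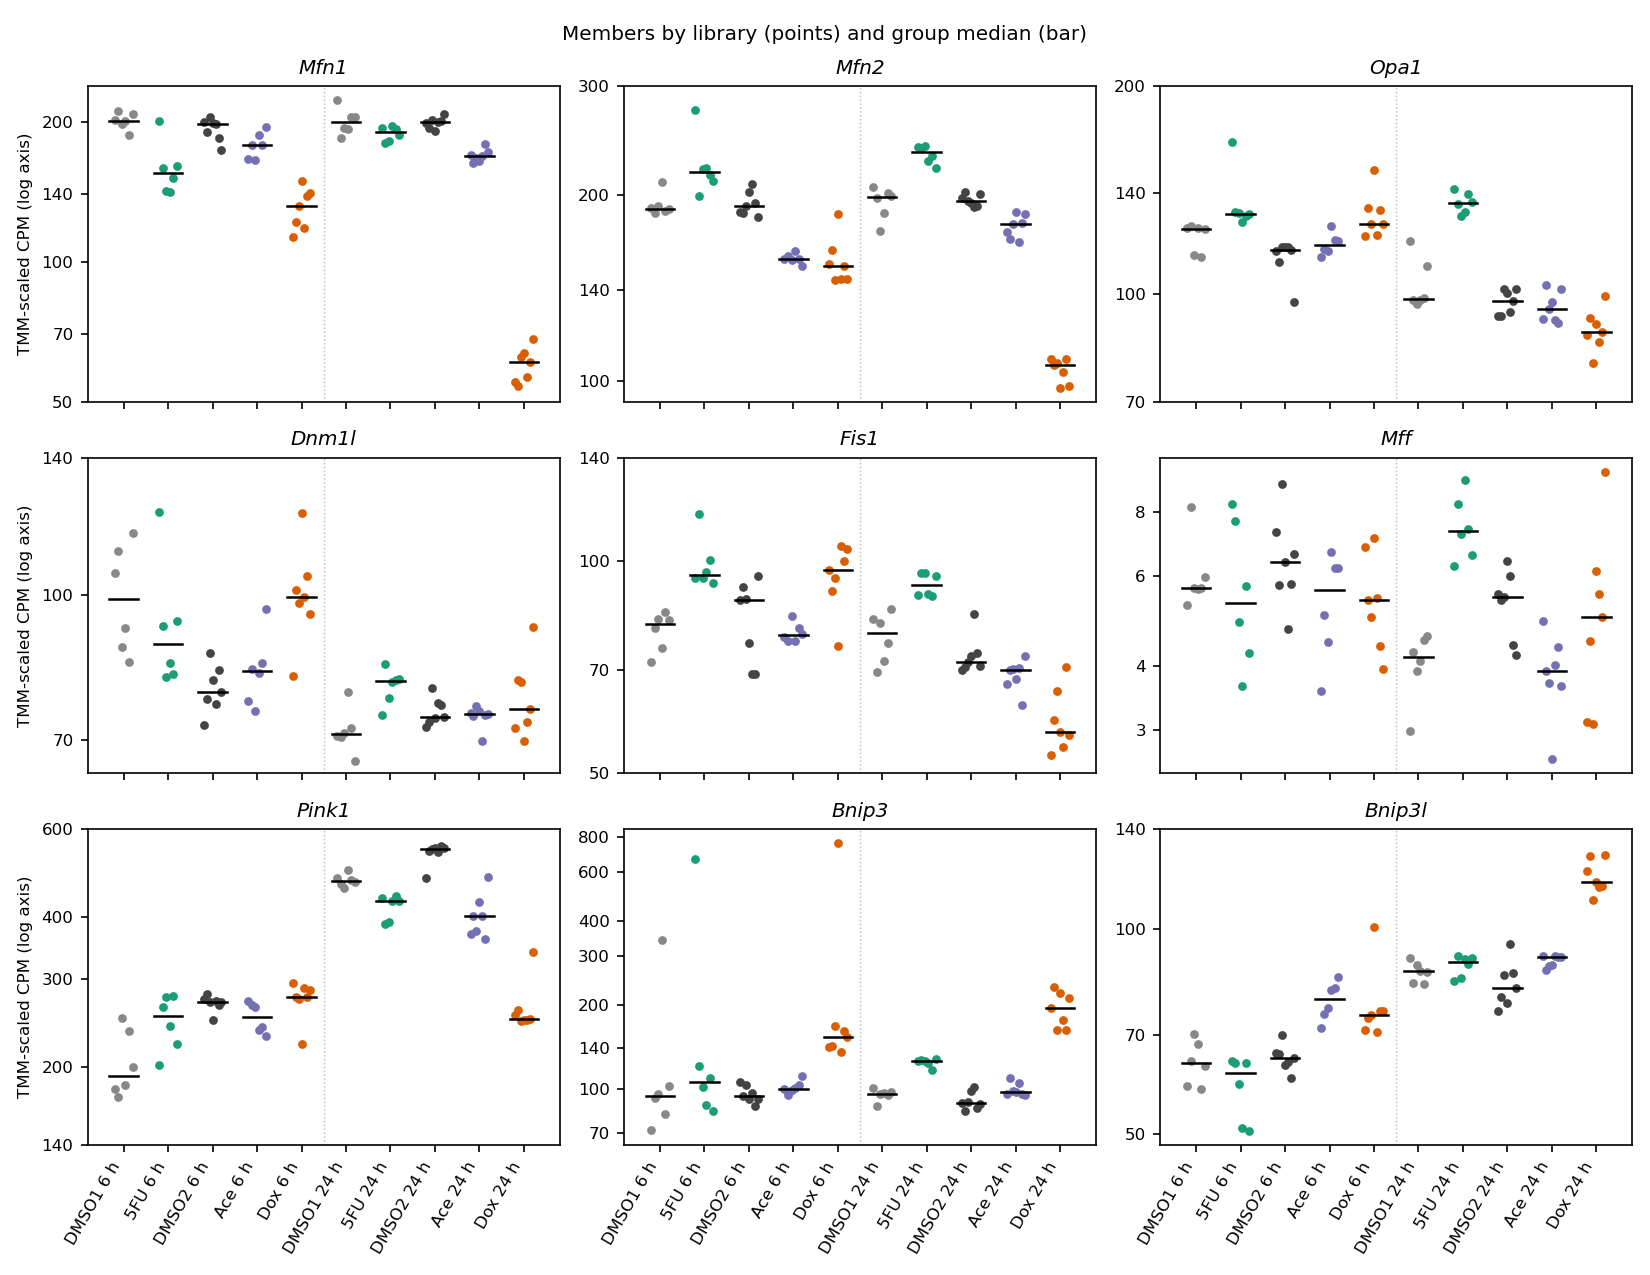
Levels of the 9 genes in TMM-scaled CPM (log axes) in each of the 65 libraries, with 6 h groups left of the dotted line and 24 h groups right of it; points are libraries and bars are group medians. Mfn1 in Dox at 24 h lies between 54 and 68.2 CPM, below every other library, and the high Bnip3 points at 342, 668 and 759.8 CPM are single libraries of 3 different groups at 6 h.

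Under Dox at 6 h, 5 of 9 rose and 2 fell, where 31.5% of all genes tested were called higher and 32.7% lower. At 24 h, 2 rose (Bnip3 and Bnip3l) and 4 fell (Mfn1, Mfn2, Fis1 and Pink1), against 40.4% of all genes higher and 41% lower. The share of members that fell was close to that of all genes and the share that rose was below it. With 9 genes this difference was not tested. The median log2 fold change over the 9 members at 24 h was -0.13, beside 0.00 over all genes.

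5FU raised 4 members and lowered 1 at 6 h, where 23.3% of all genes were higher and 24.4% lower, and raised 4 and lowered none at 24 h, where 27.9% were higher and 27.7% lower. Ace moved fewer. At 6 h it raised Bnip3l and lowered Mfn2, against 16.4% of genes higher and 15.1% lower, and at 24 h it lowered Mfn1, Mfn2 and Pink1 and raised none, against 18.1% higher and 19.1% lower. Counted by ranges that did not overlap, wholly above or below the control libraries lay 4 members under Dox at 6 h (3 above and 1 below, against 19.7% and 22.9% of all genes), 5 at 24 h (2 and 3, against 33.6% and 34.6%), 2 under 5FU at 6 h (both above, against 13.8%), 6 at 24 h (5 and 1, against 22.3% and 20.6%), 2 under Ace at 6 h (1 and 1, against 12.4% and 12.1%) and 2 at 24 h (both below, against 13.7%). The comparisons of Ace and of Dox share the DMSO2 libraries of their time point and are therefore not independent of each other.

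**Figure D2:**
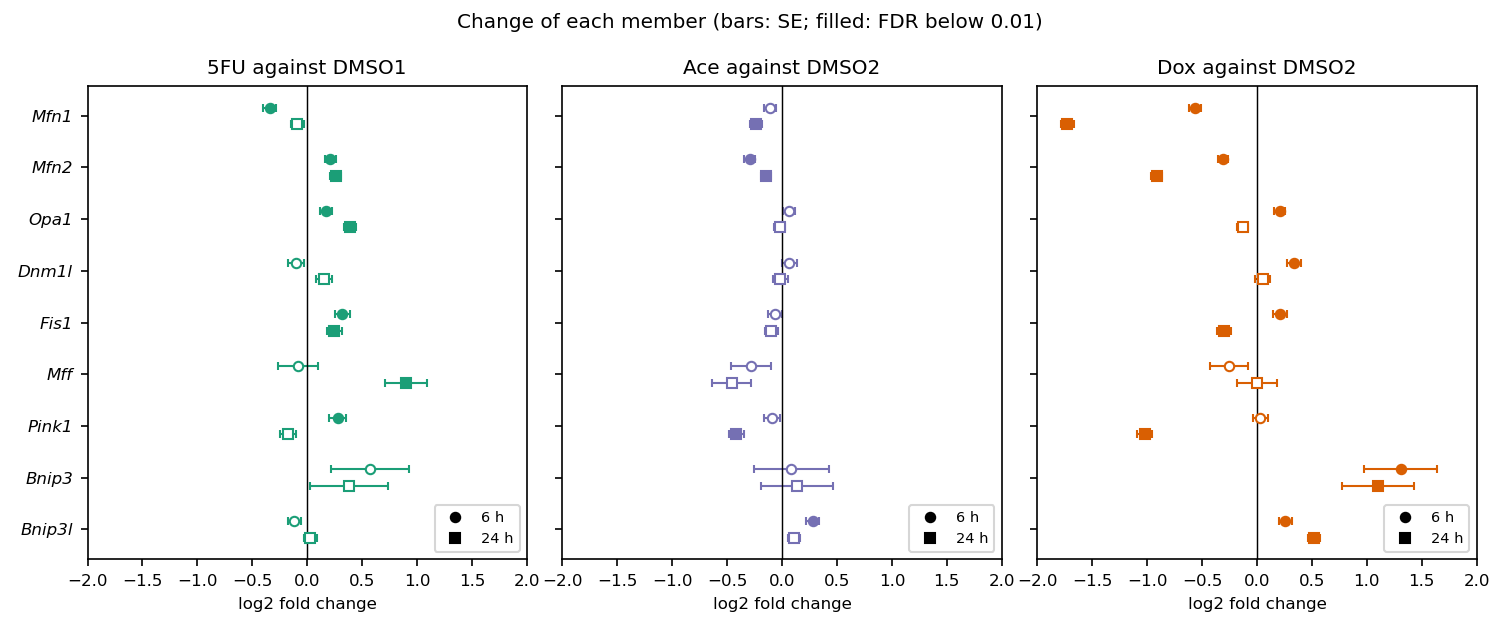
Log2 fold change of each gene against its DMSO control, with bars for the standard error (SE), circles for 6 h and squares for 24 h, and filled symbols where the FDR was below 0.01. Dox holds the extremes in both directions, Mfn1 at -1.73 at 24 h and Bnip3 at 1.31 at 6 h, and Bnip3 has the widest error bars, from 0.33 to 0.36.

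Mfn1, the mitofusin best known for tethering neighbouring mitochondria, showed the deepest change of the 9. In Dox at 24 h it had a lowest level of 54, a median of 60.7 and a highest of 68.2 CPM, and in DMSO2 at 24 h 191, 199.8 and 208 CPM. Every Dox library lay below every control library, and the fall was 3.31-fold (log2 fold change -1.73 ± 0.057 SE, FDR 2.02e-38). The fall was already present at 6 h, with 113 to 149 CPM (median 132) under Dox and 174 to 204 CPM (median 198) in DMSO2, again without overlap and at a log2 fold change of -0.56 ± 0.055 (FDR 2.58e-14). The effect at 24 h was deeper than that at 6 h by -1.16 ± 0.079 on the log2 scale (FDR 3.70e-21).

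The other drugs moved Mfn1 far less. Under 5FU at 6 h it ranged from 141 to 201 CPM with a median of 155, and in DMSO1 from 187 to 211 CPM with a median of 201. The highest 5FU value came from library 1, which alone overlapped the controls. The log2 fold change was -0.34 ± 0.059 (FDR 1.46e-06) with all libraries and -0.43 (FDR 9.10e-10) without the 3 libraries that stood apart. By 24 h the difference was -0.09 ± 0.059 and was not called (FDR 0.182). Under Ace, Mfn1 lay between 163 and 179 CPM at 24 h against 191 to 208 in DMSO2, without overlap, at a log2 fold change of -0.24 ± 0.055 (FDR 0.000236), while the difference at 6 h was -0.11 ± 0.057 (FDR 0.109).

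Mfn2, the mitofusin that also links mitochondria to the endoplasmic reticulum, fell with Dox and Ace and rose with 5FU. In Dox at 24 h its level was 97.4 to 108 CPM with a median of 106, and in DMSO2 191 to 202 CPM with a median of 196. The groups did not overlap, and the fall was 1.89-fold (log2 fold change -0.91 ± 0.047, FDR 6.50e-28). At 6 h the Dox libraries lay between 146 and 186 CPM, with library 4 at the top and the only library inside the control range of 184 to 208 CPM, and the log2 fold change was -0.31 ± 0.046 (FDR 2.52e-08). Ace lowered Mfn2 at 6 h to 154 to 162 CPM, below every DMSO2 library (log2 fold change -0.30 ± 0.048, FDR 7.32e-07). At 24 h the Ace libraries, at 168 to 187 CPM, again lay below all 7 controls, but the difference was -0.14 ± 0.046 (FDR 0.00790) and was no longer called in 10 of the fits that left out a single library, with FDR up to 0.0249.

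5FU moved Mfn2 the other way. At 24 h its libraries lay between 221 and 239.8 CPM (median 235), above all DMSO1 libraries at 175 to 206 CPM (median 198), for a log2 fold change of 0.26 ± 0.050 (FDR 6.77e-06). At 6 h the 5FU range of 199 to 274 CPM overlapped the DMSO1 range of 187 to 209.7 CPM, and the log2 fold change was 0.21 ± 0.050 (FDR 0.000234). Fitted on these 2 groups alone, the 6 h rise was not called (FDR 0.0241), nor was it with scaling by library total (0.13, FDR 0.0268).

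Opa1, the fusion GTPase of the inner membrane, was not called under Dox at 24 h and rose with 5FU. In Dox at 24 h it ranged from 79.6 to 99.5 CPM (median 88.3) and in DMSO2 from 93.0 to 102 CPM (median 97.9), and these ranges overlapped. The log2 fold change was -0.13 ± 0.051 (FDR 0.0146), just outside the threshold, and it was called at -0.12 (FDR 0.00648) without the 3 libraries of 6 h and at -0.15 (FDR 0.000484) without all 5 that stood apart. At the earlier time Opa1 lay at 121 to 151 CPM under Dox and at 97.6 to 117 CPM in DMSO2, so every Dox library was higher (log2 fold change 0.21 ± 0.050, FDR 0.000244). Scaled by library total alone, that rise was 0.05 and not called (FDR 0.306), and the median of all genes then lay at -0.15.

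5FU raised Opa1 at both times. At 24 h the 6 libraries lay between 129.6 and 142 CPM, above DMSO1 at 97.0 to 119 CPM, for a log2 fold change of 0.39 ± 0.055 (FDR 6.38e-09), or 0.43 (FDR 1.80e-13) without the 5 libraries. The 6 h difference was 0.17 ± 0.054 (FDR 0.00667), with 127 to 166 CPM against 113 to 125 CPM, but without library 1 of 5FU it was 0.10 (FDR 0.0972), and it was also lost without library 3 or 5 of DMSO1 (FDR 0.0202 and 0.0223). Ace left Opa1 within 0.06 ± 0.052 of its control at 6 h (FDR 0.341) and at -0.02 ± 0.051 at 24 h (FDR 0.760).

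The ratio of 2 genes within a library needs no scaling between libraries. The log2 ratio of Mfn1 to Mfn2 counts had a median between -0.03 and 0.06 in the 4 control groups. It was -0.48 in 5FU and -0.31 in Dox at 6 h, and -0.28 in 5FU and -0.84 in Dox at 24 h. In Ace it was 0.17 at 6 h, above the control medians, and -0.06 at 24 h. Under 5FU the shift came with Mfn1 lower and Mfn2 higher at 6 h and Mfn2 higher at 24 h, and under Dox with both genes lower. The log2 ratio of Opa1 to Mfn2 had a median of -0.98 in DMSO2, -0.28 in Dox and -0.91 in Ace at 24 h. At 6 h it was -0.74 in DMSO2, -0.26 in Dox and -0.42 in Ace. In 5FU it was -0.73 at 6 h and -0.77 at 24 h, beside -0.67 and -0.89 in DMSO1. These ratios are of counts per gene, uncorrected for length, so only their differences between groups can be read.

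Dnm1l, which encodes the fission GTPase itself, was not called at 24 h with any drug. Its level was 69.9 to 92.4 CPM (median 75.6) under Dox and 72.4 to 79.6 CPM (median 74.1) in DMSO2, and the difference of 0.05 ± 0.068 on the log2 scale was not called (FDR 0.471). At 6 h Dox libraries lay between 81.9 and 122 CPM (median 99.5) and DMSO2 libraries between 72.6 and 86.8 CPM (median 78.8). Only the lowest Dox library lay inside the control range, and the log2 fold change was 0.34 ± 0.068 (FDR 1.14e-05). The 6 h control values differed from each other by nearly as much, since DMSO1 at 84.9 to 116 CPM was above DMSO2 by 0.33 ± 0.070 on the log2 scale (FDR 0.000256). Neither 5FU (-0.10 ± 0.073 at 6 h, FDR 0.227, and 0.16 ± 0.074 at 24 h, FDR 0.0564) nor Ace (0.07 ± 0.070 at 6 h, FDR 0.483, and -0.02 ± 0.068 at 24 h, FDR 0.849) gave a call. Without the 3 libraries that stood apart, the 5FU difference at 6 h was -0.23 (FDR 0.00212). Library 1 of 5FU, the highest of its group in Dnm1l at 123 CPM, was among those left out, so this value carries no test.

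The log2 ratio of Dnm1l to Mfn1 counts had a higher median than in the controls under each drug at both times, with the largest shift under Dox. At 24 h it lay between 0.14 and 0.59 under Dox and between -1.49 and -1.34 in DMSO2. At 6 h it lay between -0.56 and -0.25 under Dox and between -1.46 and -1.14 in DMSO2. No Dox library overlapped a control library of either time point in this ratio. Ace libraries at 24 h, at -1.27 to -1.13, also lay above every DMSO2 library of that time. At 6 h the Ace median was -1.10 and that of DMSO2 -1.29. Medians under 5FU were -0.77 at 6 h and -1.24 at 24 h, beside -1.03 and -1.47 in DMSO1.

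**Figure D3:**
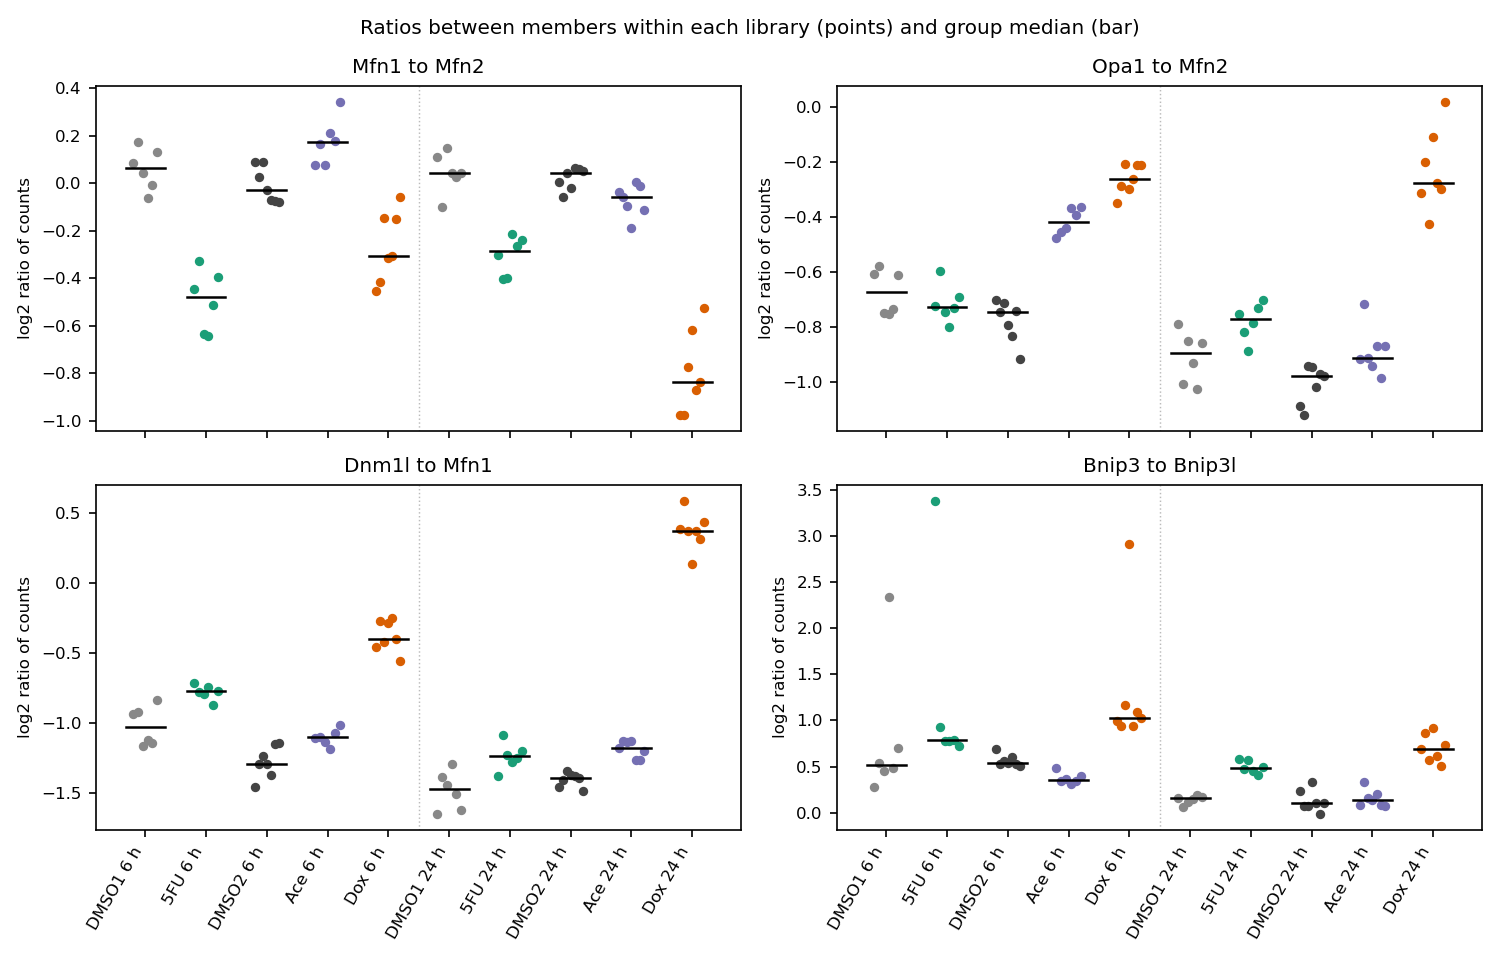
Log2 ratios of estimated counts between pairs of members within each library, by group, with points for libraries and bars for medians. The ratio of Dnm1l to Mfn1 is above 0 only in the Dox libraries at 24 h (0.14 to 0.59), and the ratio of Bnip3 to Bnip3l reaches 2.34, 3.38 and 2.92 in single libraries of DMSO1, 5FU and Dox at 6 h.

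Fis1, an outer membrane adaptor of the fission machinery, changed direction between the Dox time points. At 6 h its Dox range of 75.6 to 105 CPM overlapped the DMSO2 range of 69.1 to 95 CPM, with a log2 fold change of 0.21 ± 0.063 (FDR 0.00283). At 24 h Fis1 ranged from 53 to 70.6 CPM (median 57.2) under Dox and from 70.1 to 83.9 CPM (median 71.7) in DMSO2, and only the highest Dox library reached the controls. The log2 fold change was -0.31 ± 0.064 (FDR 1.52e-05), and the difference between the 2 times was -0.51 ± 0.089 (FDR 7.97e-07). The 6 h rise was not called when library 5 or 6 of DMSO2 or library 5 of Dox was left out (FDR 0.0159, 0.0147 and 0.0101), nor with scaling by library total (0.05, FDR 0.462).

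Under 5FU, Fis1 was higher than in every DMSO1 library at both times. It lay at 92.8 to 117 CPM against 71.9 to 84.5 CPM at 6 h and at 89.2 to 96.1 CPM against 69.5 to 85.5 CPM at 24 h. The log2 fold changes were 0.32 ± 0.068 (FDR 4.73e-05) and 0.25 ± 0.068 (FDR 0.00117). Ace gave -0.06 ± 0.065 at 6 h (FDR 0.478) and -0.10 ± 0.063 at 24 h (FDR 0.211).

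Mff, the adaptor that recruits the fission GTPase to the outer membrane, had few counts and a wide spread, but stood out under 5FU at 24 h. There it lay between 6.27 and 9.24 CPM (median 7.34), while DMSO1 lay between 2.98 and 4.57 CPM (median 4.17). The groups did not overlap, and the rise was 1.86-fold (log2 fold change 0.90 ± 0.19, FDR 4.27e-05), or 0.82 on the log2 scale (FDR 3.72e-05) without the 5 libraries, of which library 1 of DMSO1 was the lowest control. At 6 h the 5FU range of 3.65 to 8.32 CPM covered the DMSO1 range of 5.26 to 8.20 CPM, with a difference of -0.08 ± 0.19 (FDR 0.720), and the 24 h effect exceeded the 6 h effect by 0.98 ± 0.27 on the log2 scale (FDR 0.00162). The DMSO controls themselves dropped between the times, by 0.44 ± 0.13 on the log2 scale (FDR 0.00204). Dox gave -0.26 ± 0.17 at 6 h (FDR 0.174) and a value of 0.00 ± 0.18 at 24 h (FDR 0.998), where library 7 of Dox was the highest at 9.60 CPM and the lowest had 3.08 CPM, and where the value without the 5 libraries that stood apart was -0.22 (FDR 0.197). Ace gave -0.28 ± 0.18 at 6 h (FDR 0.210) and -0.46 ± 0.18 at 24 h (FDR 0.0295), neither of them called.

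Pink1, the kinase that marks damaged mitochondria, had the largest difference between the control times of the 9 genes. In the DMSO groups it ranged from 175 to 251 CPM (DMSO1) and from 249 to 280.1 CPM (DMSO2) at 6 h, and from 457 to 497 CPM and from 479 to 556 CPM at 24 h. Averaged over both vehicles, Pink1 was 2.15-fold higher at 24 h than at 6 h (log2 fold change 1.11 ± 0.051, FDR 3.08e-29), and no 24 h control library overlapped a 6 h one. The Dox libraries did not show this rise. They lay between 223 and 295 CPM (median 277) at 6 h and between 248 and 341 CPM (median 250.1) at 24 h, where the highest was library 7. Against DMSO2 the difference was 0.03 ± 0.069 at 6 h (FDR 0.705) and -1.02 ± 0.070 at 24 h (FDR 1.11e-21), a 2.03-fold lower level in which all Dox libraries lay below all controls. Without the 5 libraries that stood apart, library 7 of Dox among them, it was -1.08 (FDR 5.79e-25). The effects at the 2 times differed by -1.05 ± 0.10 on the log2 scale (FDR 3.59e-15).

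Ace and 5FU held Pink1 below its controls at 24 h by smaller amounts. Ace libraries ranged from 362 to 480.3 CPM (median 402) and overlapped DMSO2 only at the top, with a log2 fold change of -0.42 ± 0.069 (FDR 6.48e-07). 5FU libraries ranged from 387 to 440.1 CPM and all lay below the lowest DMSO1 library at 457 CPM, yet the difference of -0.18 ± 0.074 was not called (FDR 0.0348) in the fit over all groups. Fitted on 5FU and DMSO1 at 24 h alone it was called (FDR 0.00266). At 6 h 5FU libraries, at 202 to 278 CPM, overlapped DMSO1 and the log2 fold change was 0.28 ± 0.075 (FDR 0.00120), which the fit on those 2 groups alone did not call (FDR 0.0396). The 6 h DMSO1 libraries were themselves lower than DMSO2 by -0.39 ± 0.072 on the log2 scale (FDR 2.60e-05).

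Bnip3, a mitophagy receptor of the outer membrane, was higher under Dox at both times. At 24 h its level was 163 to 232 CPM (median 195) under Dox and 83.8 to 102 CPM (median 89.4) in DMSO2. No Dox library reached the controls, and the rise was 2.14-fold (log2 fold change 1.10 ± 0.33, FDR 0.00200). At 6 h the 7 Dox libraries lay between 136 and 759.8 CPM (median 154), all above the DMSO2 range of 87.3 to 106 CPM, at a log2 fold change of 1.31 ± 0.33 (FDR 0.000423). Without library 4 of Dox the Dox range was 136 to 168 CPM and the log2 fold change fell to 0.65 (FDR 0.0361), with the other 2 libraries that stood apart still in the fit. With all 3 left out, it was 0.67 at 6 h and 1.11 at 24 h. Since these libraries were picked for their Bnip3 level, Bnip3 values without them are a description and carry no test. In the fit over all libraries the effects at the 2 times differed by -0.21 ± 0.46 on the log2 scale (FDR 0.699), and the sign turned, to 0.44, without the 3.

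For 5FU at 24 h the Bnip3 groups did not overlap, though the difference was not called. The 5FU libraries lay between 118 and 128 CPM (median 126), above every DMSO1 library at 86.8 to 101 CPM (median 96.4). The log2 fold change of 0.38 ± 0.36 was not called (FDR 0.352). This SE comes from 1 model over all 10 groups, including the libraries that stood apart at 6 h. Group SDs of Bnip3 were 3.65 CPM in 5FU and 4.79 CPM in DMSO1 at 24 h. At 6 h they were 232 CPM in 5FU and 104 CPM in DMSO1. Ace differences of Bnip3 were 0.08 ± 0.34 at 6 h (FDR 0.873) and 0.13 ± 0.33 at 24 h (FDR 0.768) in the model, and the 5FU difference at 6 h was 0.57 ± 0.35 (FDR 0.161) with all libraries and 0.17 without the 3.

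The 3 libraries were high in a set of genes around Bnip3. In library 1 of 5FU, library 4 of DMSO1 and library 4 of Dox, Eno2, a glycolytic enolase, reached 479.8, 256 and 573 CPM, while the other 62 libraries lay between 28.2 and 101 CPM. Pdk1, a kinase that inhibits pyruvate dehydrogenase, reached 184, 95.2 and 212 CPM against 38.5 to 81.9 CPM in the other 62. Bnip3 lay at most at 232 CPM in those 62 libraries. Ranked by its excess over the median of the rest of its group, among 9311 genes with a mean of at least 10 CPM, Bnip3 was at rank 1, 1 and 2 in the 3 libraries and Eno2 at rank 2, 2 and 1. The 3 libraries were picked for their Bnip3 level, so its high rank followed from that choice. The ranks describe these libraries and carry no test. Of 19 measured hypoxia-inducible factor targets, 14, 9 and 13 lay above every other library of their group, where 24.6%, 16.9% and 22.9% of all genes did, and their median excess was 0.67, 0.13 and 0.47 on the log2 scale. Other lists were high there as well: 9, 5 and 7 of 11 genes of mitochondrial import and matrix lay above every other library of their group (median excess 0.28, 0.06 and 0.23), and 1, 2 and 9 of 9 endothelial markers (-0.14, 0.06 and 0.40). Slc2a1, the glucose transporter of that list, differed by 0.10, 0.13 and 0.08. These 3 libraries come from 5FU, Dox and a vehicle, and what set them apart was not tested.

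**Figure D4:**
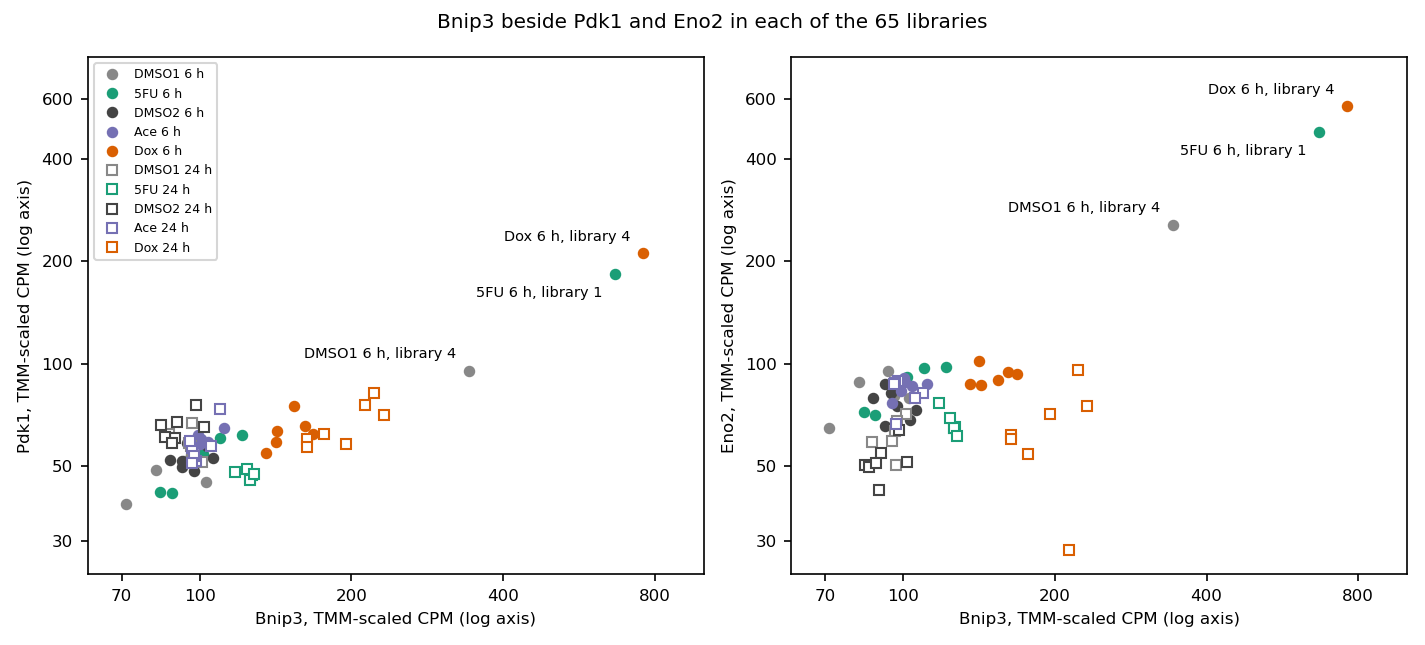
Bnip3 against Pdk1 (left) and Eno2 (right) in each of the 65 libraries, as TMM-scaled CPM on log axes, with filled circles for 6 h and open squares for 24 h. The 3 labelled libraries of 6 h lie at 342, 668 and 759.8 CPM of Bnip3, and the other 62 lie at or below 232 CPM of Bnip3 and 81.9 CPM of Pdk1.

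Other members also differed in these libraries, in part in opposite directions. In library 1 of 5FU, 7 of 9 members lay above the other 5 libraries, where 24.6% of all genes did. Dnm1l was higher by 0.53 and Mfn1 by 0.41 on the log2 scale than the median of those 5, while Pink1 was lower by -0.39. In library 4 of Dox, 7 of 9 lay above the other 6 (22.9% of all genes), with Bnip3l higher by 0.43 and Pink1 lower by -0.33. In library 4 of DMSO1 only Mfn2 and Bnip3 lay above the other 5 (16.9% of all genes). Each count includes Bnip3, by which the libraries were picked. Across all 65 libraries, after the group mean was taken off, the deviations of Bnip3 went with those of the glycolytic genes Gpi (Pearson's r = 0.96) and Tpi1 (0.93) and with Pdk1 (0.94). Without the 3 libraries the coefficients were 0.74, 0.74 and 0.63 over 62 libraries, and for Eno2 the coefficient went from 0.90 to 0.25. These describe libraries of the same sequencing table and carry no test.

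The upstream sequences of Bnip3 and Pink1 are shown because both genes hold CACGTG, a palindrome known as an E-box. It contains ACGTG, a core bound by the hypoxia-inducible factor, on both strands. Each sequence is the 250 bases before the annotated start, 5′ to 3′ in the direction of the gene, from RefSeq on GRCr8, with CACGTG in capitals. The Bnip3 window is chr1:203154963-203155212 and the Pink1 window chr5:155825951-155826200, both on the minus strand.
Bnip3: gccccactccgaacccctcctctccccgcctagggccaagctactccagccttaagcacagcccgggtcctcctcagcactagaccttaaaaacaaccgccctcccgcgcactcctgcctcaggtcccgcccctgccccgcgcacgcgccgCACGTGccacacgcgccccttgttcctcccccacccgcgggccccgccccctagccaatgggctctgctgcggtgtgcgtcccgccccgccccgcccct
Pink1: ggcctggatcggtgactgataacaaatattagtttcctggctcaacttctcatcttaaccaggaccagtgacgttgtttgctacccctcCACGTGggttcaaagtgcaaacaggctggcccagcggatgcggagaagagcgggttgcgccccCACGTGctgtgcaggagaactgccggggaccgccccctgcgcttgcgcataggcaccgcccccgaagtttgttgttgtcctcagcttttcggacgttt
CACGTG begins 99 bases before the Bnip3 start and 161 and 98 bases before the Pink1 start. It occurs on either strand in 5.59% of all 33469 promoter windows of this length in the table, and in 2 of the 8 windows of the members. These 8 windows belong to 7 members, Fis1 having more than 1, and Mfn2 and Bnip3l had none. ACGTG was in the windows of Bnip3, Pink1 and Opa1 (16.6% of all windows), and GCGTG, the other form of the core, in those of Bnip3, at 108 and 90 bases before the start, Mff and Opa1 (25.9%). A further 3 motifs were searched on both strands: CCAAT (5 of 8 windows, 34% of all), CCGGAAG (only Mfn1, 7.27%) and TGACGTCA (none, 1.59%). A match shows letters and not a bound site.

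Bnip3l, the receptor related to Bnip3 that also clears mitochondria from maturing red cells, rose at both Dox times. Under Dox at 24 h it lay between 110.2 and 128 CPM (median 117), above every DMSO2 library at 75.9 to 95.1 CPM (median 82.0), with a log2 fold change of 0.52 ± 0.055 (FDR 1.53e-13). At 6 h Dox libraries lay between 70.7 and 101 CPM, all above DMSO2 at 60.5 to 69.9 CPM (log2 fold change 0.26 ± 0.055, FDR 3.37e-05). The value was 0.20 (FDR 0.000295) without the 3 libraries and 0.10, not called (FDR 0.0732), with scaling by library total. Ace raised Bnip3l at 6 h, to 71.6 to 85.0 CPM, above all DMSO2 libraries (log2 fold change 0.28 ± 0.057, FDR 5.23e-05), but gave 0.11 ± 0.055 at 24 h (FDR 0.0915). 5FU gave -0.12 ± 0.060 at 6 h (FDR 0.0870) and 0.03 ± 0.059 at 24 h (FDR 0.676). Like Pink1, Bnip3l was higher in the older control cultures, by 0.40 ± 0.041 on the log2 scale at 24 h (FDR 1.02e-13).

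For the members not yet given without the libraries that stood apart, no call changed. Without the 3 of 6 h, the Dox values at 6 h were -0.58 for Mfn1, -0.34 for Mfn2, 0.18 for Opa1, 0.30 for Dnm1l, 0.27 for Fis1, -0.32 for Mff and 0.09 for Pink1. The 5FU values at 6 h were then 0.16 for Mfn2, 0.31 for Fis1, -0.25 for Mff, 0.29 for Pink1 and -0.14 for Bnip3l. Without all 5, the Dox values at 24 h were -1.75 for Mfn1, -0.89 for Mfn2, 0.02 for Dnm1l, -0.28 for Fis1 and 0.51 for Bnip3l. The 5FU values at 24 h were then -0.06 for Mfn1, 0.27 for Mfn2, 0.15 for Dnm1l, 0.26 for Fis1, -0.18 for Pink1 and 0.04 for Bnip3l.

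Time and vehicle alone also moved several members. Between 6 and 24 h in the DMSO controls, Pink1 and Bnip3l rose and Opa1 (-0.22 ± 0.037, FDR 4.11e-07), Dnm1l (-0.28 ± 0.050, FDR 1.27e-06) and Mff fell, where 32.6% of all genes were called higher and 31.8% lower. Mfn1 (0.02 ± 0.040, FDR 0.650), Mfn2 (0.01 ± 0.034, FDR 0.710), Fis1 (-0.10 ± 0.046, FDR 0.0543) and Bnip3 (-0.27 ± 0.24, FDR 0.320) were not called. Between the vehicles at 6 h, Dnm1l was higher and Pink1 lower in DMSO1 (9.80% and 6.56% of all genes). At 24 h, 0 of 9 members differed between the vehicles by edgeR's test, 2 at an unadjusted p under 0.05, where 0.117% of genes were higher and 0.309% lower in DMSO1. These 2 members were Mff (-0.40 ± 0.19, FDR 0.269) and Pink1 (-0.18 ± 0.072, FDR 0.159), both lower in DMSO1.

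How far the drug effects changed with time was tested directly. For Dox, 6 members had a lower effect at 24 h than at 6 h (Mfn1, Mfn2, Opa1 by -0.34, Dnm1l by -0.28, Fis1 and Pink1) and Bnip3l a higher one, by 0.26 ± 0.078 (FDR 0.00220), where 33.9% of all genes had a higher and 30.8% a lower effect. The Dnm1l difference had an FDR of 0.00664 and missed the threshold in 13 of the 28 fits that left out a library, as well as with scaling by library total (-0.08, FDR 0.359). For 5FU, Mff had a higher and Pink1 a lower effect at 24 h (-0.45 ± 0.11, FDR 0.000266), against 20.2% of genes higher and 19.1% lower. Without the 3 libraries of 6 h, Mfn1, Opa1 and Dnm1l joined the higher ones, at 0.34, 0.28 and 0.38. Library 1 of 5FU, which was left out there, was itself high in these genes, so this is a description. For Ace, 0 of 9 were called by edgeR's test, 3 at an unadjusted p under 0.05, where 5.48% of all genes were called higher and 5.94% lower. The Ace value nearest the threshold was Pink1 at -0.33 ± 0.10 (FDR 0.0132), which DESeq2 called (FDR 0.00859). Mfn2, at 0.15 ± 0.067 (FDR 0.0984), was 0.18 (FDR 0.00577) without the 3 libraries. Those 3 are not part of the Ace comparison and enter it only through the model shared by all groups.

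The drugs were also set against each other at 24 h. Dox and Ace, which share a vehicle, differed in Mfn1 (-1.49 ± 0.057, FDR 6.79e-35), Mfn2 (-0.77 ± 0.047, FDR 4.59e-24), Pink1 (-0.61 ± 0.069, FDR 3.25e-12), Fis1 (-0.21 ± 0.064, FDR 0.00222), Bnip3l (0.41 ± 0.055, FDR 4.16e-10) and Bnip3 (0.97 ± 0.33, FDR 0.00603), as log2 differences of Dox minus Ace. Of all genes 40.7% were higher and 39.8% lower in this comparison. All but Fis1 had ranges that did not overlap between the 2 groups (33.3% of all genes lay wholly above and 33.1% wholly below). The Fis1 difference was lost in 5 of the 14 fits that left out a library, with FDR up to 0.0137, and that of Bnip3 without library 7 of Ace (FDR 0.0101). Opa1, at -0.11 ± 0.051 (FDR 0.0400), was called at -0.14 (FDR 0.00116) without the 5 libraries that stood apart. The Dox effect minus the 5FU effect was below 0 for Mfn1 (-1.64 ± 0.082), Mfn2 (-1.18 ± 0.069), Opa1 (-0.52 ± 0.075), Fis1 (-0.55 ± 0.093), Mff (-0.90 ± 0.26) and Pink1 (-0.85 ± 0.10), and above 0 for Bnip3l (0.49 ± 0.081), with FDR of 0.00155 or less, where 35.7% of genes lay above and 35.3% below. For Bnip3 it was 0.72 ± 0.48 (FDR 0.171) and was not called.

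Ordered by group medians, Mfn1 ran from 60.7 CPM in Dox at 24 h to 201 CPM in DMSO1 at 6 h, a 3.31-fold span, and of the 9 steps between neighbouring groups only that from Dox at 24 h to Dox at 6 h exceeded the sum of the SDs of the 2 groups. Pink1 spanned 2.85-fold, from 192 CPM in DMSO1 at 6 h to 547 CPM in DMSO2 at 24 h, with 3 such steps. Mfn2 spanned 2.21-fold with 2 such steps, and Bnip3l 1.90-fold with 1, that from Ace to Dox at 24 h. Bnip3 spanned 2.18-fold, Mff 1.88-fold, Fis1 1.70-fold, Opa1 1.53-fold and Dnm1l 1.4-fold, with no step beyond the SDs in these 5 genes. Steps were measured between group means. For Bnip3 the SDs at 6 h, 231 CPM in Dox, 232 in 5FU and 104 in DMSO1, each include 1 library that stood apart.

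Over the 10 group means, among the 36 pairs, Opa1 and Fis1 (Pearson's r = 0.94) and Mfn1 and Mfn2 (0.86) were the closest in their log2 CPM, and Mfn1 and Bnip3 (-0.82) the most opposed. Among the genes of the whole table with a mean of at least 10 CPM, Mfn1 was most like Pdf (0.99), Gcn1 (0.99) and Ecd (0.99), Mfn2 like Mta3 (0.98), Arhgef10l (0.97) and Mix23 (0.96), and Opa1 like Coq4 (0.98), Chmp2a (0.98) and Rbis (0.97). Fis1 was most like Mrpl52 (0.97), Ndufa9 (0.97) and Cox6a1 (0.96), which encode a mitochondrial ribosomal protein and subunits of complexes of the respiratory chain. Dnm1l was most like Fhl1 (0.95), Cfl2 (0.95) and Nppb (0.94), of which Nppb encodes a natriuretic peptide of the heart. Pink1 was most like Qsox1 (0.98), Mb (0.98), which encodes myoglobin, and Tcn2 (0.98). Bnip3 was most like Rcn2 (0.98), Dnaaf2 (0.97) and Prrg4 (0.97), Bnip3l like Zfyve21 (0.98), Atp11b (0.97) and Wbp4 (0.96), and Mff like Tfpt (0.88), Sf3a2 (0.87) and Rab5c (0.86). The 10 points come from the same preparation and share controls, so these coefficients are a description.

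The genes around the members were counted from lists of partners. These counts stand against 40.4% of all genes higher and 41% lower under Dox at 24 h, 27.9% and 27.7% under 5FU and 18.1% and 19.1% under Ace, and at 6 h against 31.5% and 32.7%, 23.3% and 24.4%, and 16.4% and 15.1%. Of 9 fusion and inner membrane partners, Dox at 24 h raised 3 and lowered 4 (median log2 fold change -0.14), near the shares over all genes. Chchd3, a protein of the cristae junction complex, fell by 2.18 ± 0.069 on the log2 scale (FDR 2.01e-39), while Oma1, the protease that cleaves Opa1 under stress, rose by 1.76 ± 0.077 (FDR 1.02e-31). 5FU at 24 h raised 6 and lowered 1 (median 0.27), and Ace raised 3 and lowered none, Oma1 among them at 0.72 ± 0.078 (FDR 6.83e-12). After 6 h the counts of rises and falls were 3 and 2 for Dox, 3 and 3 for 5FU and 1 and 1 for Ace.

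Of 10 fission partners, Dox at 24 h raised 5 and lowered 3 (median 0.42), beside 40.4% and 41% of all genes. Mtfr1, a promoter of fission, rose by 1.39 ± 0.062 (FDR 2.63e-31), Inf2, a formin that assembles actin at division sites, rose by 1.10 ± 0.077 (FDR 5.54e-21), and Mief2, a receptor for the fission GTPase, fell by 1.14 ± 0.055 (FDR 2.56e-29). 5FU at 24 h raised 7 and lowered 1 (median 0.20) and Ace raised 2 and lowered 1 (median 0.08), with Mtfr1 higher in both, at 0.72 ± 0.067 (FDR 6.90e-15) and 0.48 ± 0.062 (FDR 1.52e-09). After 6 h the counts were 2 and 2 for Dox, 2 and 3 for 5FU and 4 and 3 for Ace. Of 5 genes of mitochondrial transport along microtubules, Dox at 24 h lowered 4 and raised 1 (median -0.64), beside the same shares, with Rhot1, the outer membrane anchor of the motor complex, at -1.59 ± 0.042 (FDR 4.34e-44). 5FU raised 3 and lowered 1, and with Ace 0 were called by edgeR's test.

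Of 10 further mitophagy receptors and adaptors, Dox at 24 h raised 4 and lowered 5 (median -0.12), near the 40.4% and 41% of all genes. Fundc1, a receptor of the same class as Bnip3 and Bnip3l, fell by 1.58 ± 0.070 (FDR 2.41e-31), opposite to both. Of 11 ligases, proteases and regulators, Dox raised 6 and lowered 5 (median 0.40), with Tbk1, a kinase of autophagy adaptors, at 0.95 ± 0.049 (FDR 1.16e-27) and Mul1, an outer membrane ubiquitin ligase, at -1.03 ± 0.056 (FDR 2.01e-26). 5FU at 24 h raised 4 and lowered 1 of the receptors and raised 7 and lowered 1 of the regulators, with Sqstm1, the adaptor p62, at 0.61 ± 0.065 (FDR 1.64e-12). Ace at 24 h raised 2 and lowered 1 of the receptors and raised 3 and lowered 2 of the regulators. Parkin was not analysed here.

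As a reference outside dynamics and mitophagy, 11 genes of import and of the matrix were followed. Under Dox 7 rose and none fell at 6 h (median 0.18), where 31.5% of all genes were higher and 32.7% lower, and 3 rose and 6 fell at 24 h (median -0.42), where 40.4% were higher and 41% lower. At 24 h Vdac3 fell by 2.18 ± 0.067 on the log2 scale (FDR 2.78e-40). Their summed CPM lay between 1934 and 2144 under Dox at 24 h and between 2817 and 3037 in DMSO2. 5FU at 24 h raised 7 of 11 (median 0.20). Of the 19 hypoxia-inducible factor targets, Dox raised 11 and lowered 3 at 6 h (median 0.42) and raised 15 and lowered 3 at 24 h (median 1.04), beside the same shares over all genes, with Ndrg1 at 2.92 ± 0.10 (FDR 4.68e-37) and Adm at 2.21 ± 0.10 (FDR 1.46e-30) at 24 h. 5FU at 24 h raised 5 and lowered 5, and Ace raised 1 and lowered 3. Beside these, 8 of 10 cardiomyocyte markers (median -2.0), 9 of 10 fibroblast, 9 of 9 endothelial and 9 of 10 macrophage markers fell under Dox at 24 h, and 6 mural cell markers divided into 3 that rose and 3 that fell. Medians over all genes were within 0.01 of 0 in each of the 6 comparisons of drug and control.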

How the data were processed

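RNA from 65 cultures was sequenced after polyA selection. The values are estimated counts per gene as deposited by the authors, who pseudoaligned reads to the rat Ensembl transcriptome with kallisto, summed transcripts to Entrez genes by tximport and dropped the genes whose counts were low in every library. The counts were whole numbers and not normalized, and quantification over shared transcripts can split reads between related genes. Column names gave treatment and time but no replicate number. Symbols came from RefSeq (14009 of 14554 identifiers matched).

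Counts were fitted with edgeR 4.0.16 in R 4.3.3 (TMM scaling, robust quasi-likelihood F test, 1 model of 10 groups, 14 contrasts), with Benjamini-Hochberg adjustment over all genes and calls at FDR below 0.01. SE is the absolute log2 fold change divided by the square root of F. The fit was tested on simulated data. All 9 members were described in every comparison, with at most 3 called genes of each partner list and the 3 genes most like each member. Alternatives were DESeq2 1.42.0, its size factors, library totals, filterByExpr, the compared groups alone, other thresholds and leaving out each library. Leaving out 3 or 5 libraries and the motifs were chosen after the values were seen. A permutation test of Bnip3 was also run then, and is not reported because the separation of the groups had prompted it. Members and lists were chosen with earlier results of these data known.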

Additional observations from a re-analysis of the deposited data

Results flagged for a closer look

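In 90 groups of 6 or 7 libraries (9 genes in 10 groups), 19 had a library farther from the rest than Dixon's 95% limit, where chance flags about 1 in 20 groups, and 14 of the 19 were at 6 h. The 9 genes were read in the same libraries, so these groups are not independent, and several flags fall on the same library. Library 1 of 5FU at 6 h was high in Bnip3 (668 CPM), Mfn1 (201 CPM), Mfn2 (274 CPM), Opa1 (166 CPM) and Dnm1l (123 CPM), and library 2 of that group in Fis1 (117 CPM). Library 4 of Dox at 6 h was high in Bnip3 (759.8 CPM), Opa1 (151 CPM) and Bnip3l (101 CPM) and low in Pink1 (223 CPM). Library 4 of DMSO1 at 6 h was high in Bnip3 (342 CPM) and Mfn2 (209.7 CPM), and library 2 of that group in Mff (8.20 CPM). Library 7 of DMSO2 at 6 h was low in Opa1 (97.6 CPM). At 24 h, library 7 of Dox was high in Pink1 (341 CPM), library 5 of DMSO2 high in Fis1 (83.9 CPM), library 1 of DMSO2 low in Pink1 (479 CPM), library 5 of Ace low in Dnm1l (69.9 CPM) and library 1 of DMSO1 low in Mff (2.98 CPM).

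Effects that differed between times or drugs by edgeR's test at FDR below 0.01 numbered 22, as log2 values. From 6 to 24 h the 5FU effect differed for Mff (0.98) and Pink1 (-0.45). The Dox effect differed between the times for Mfn1 (-1.16), Mfn2 (-0.61), Opa1 (-0.34), Dnm1l (-0.28), Fis1 (-0.51), Pink1 (-1.05) and Bnip3l (0.26). At 24 h the Dox effect minus the 5FU effect was -1.64 for Mfn1, -1.18 for Mfn2, -0.52 for Opa1, -0.55 for Fis1, -0.90 for Mff, -0.85 for Pink1 and 0.49 for Bnip3l. Dox minus Ace at 24 h was -1.49 for Mfn1, -0.77 for Mfn2, -0.21 for Fis1, -0.61 for Pink1, 0.97 for Bnip3 and 0.41 for Bnip3l.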

How the results depend on the processing

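No paired analysis was possible because the columns carry no replicate numbers. Cultures shared a preparation, Mff had few counts, and the cause of each change below was not tested. With an absolute log2 fold change of at least 1 also required, the members called were 0 for 5FU at 6 h and at 24 h, 0 for Ace at both times, 1 for Dox at 6 h, 3 for Dox at 24 h, 0 and 2 for the change over time of the 5FU and Dox effects, 0 between the vehicles at 6 h, 1 between the control times, 2 for Dox against the 5FU effect and 1 for Dox against Ace. With scaling by library total they were 3 for 5FU and 4 for Dox at 6 h, and 5 and 1 for the change over time of the 5FU and Ace effects. Fitted on the compared groups only they were 2 and 7 for 5FU at 6 and 24 h, 5 for Ace at 24 h and 1 for the change of the Ace effect. At FDR below 0.1 they were 5 for Ace at 24 h and 5 and 2 for the changes of the 5FU and Ace effects. DESeq2 gave 1 for the change of the Ace effect. Without the 3 libraries set apart by Bnip3 these changes gave 5 (5FU) and 1 (Ace), and without 5 libraries 5 and 2. Leaving out single libraries gave 2 to 5 and 0 to 1, with 5 for 5FU when its library 1 of 6 h was left out.

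Directions turned for small or uncalled values. With scaling by library total, Opa1 and Dnm1l under Ace at 24 h were 0.036 and 0.040, Pink1 under Dox at 6 h -0.12, Mff under Dox at 24 h 0.036, the change of the Ace effect 0.0018 for Opa1, 0.0058 for Dnm1l and 0.053 for Fis1, that of the Dox effect 0.00091 for Bnip3, and DMSO1 against DMSO2 -0.023 for Mfn1 at 6 h and 0.031 for Mfn2 at 24 h. Mff under Dox at 24 h was 0.034 by DESeq2, 0.041 with its size factors, 0.030 after filterByExpr and 0.0071 without the 3 libraries. Without 3 and without 5 libraries, Bnip3 was 0.21 and 0.23 for the change of the 5FU effect, 0.44 and 0.42 for that of the Dox effect and -0.12 and -0.12 between the vehicles at 6 h. Between the control times, Bnip3 was 0.00054 without 3 libraries, Mfn1 -0.0072 without 5 and Mfn2 -0.00258 after filterByExpr, and Mfn1 was -0.012 between the vehicles at 24 h without 5. Leaving out single libraries, Bnip3 ranged from -0.38 to 1.13 for 5FU at 6 h (1.13 and called without library 4 of DMSO1), -0.75 to 0.76 for the change of the 5FU effect, -0.31 to 0.45 for that of the Dox effect, -0.11 to 0.58 between the vehicles at 6 h and -0.33 to 0.013 between the control times. Mff ranged from -0.22 to 0.017 for 5FU at 6 h and -0.21 to 0.12 for Dox at 24 h, and Fis1 from -0.071 to 0.0044 for the change of the Ace effect. Between the vehicles Mfn2 ranged from -0.0313 to 0.0125 and Bnip3l from -0.054 to 9.86e-05 at 6 h, and Mfn2 from -0.033 to 0.014 and Mfn1 from -0.021 to 0.045 at 24 h. Between the control times Mfn2 ranged from -0.0082 to 0.030 and Mfn1 from -0.0029 to 0.0385.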
